A study of Mus musculus with 8 samples.

Results

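The genes described here are the autosomal Toll-like receptor genes of the mouse with their close partners, 10 members in all: Tlr1, Tlr2, Tlr3, Tlr4, Tlr5, Tlr6, Tlr9, Cd180, Ly86 and Ly96. They were chosen by name, with earlier results of these data known, from 21728 protein-coding genes of the autosomes and chromosome X (GENCODE M21 annotation on GRCm38). Each was taken as its gene body with 10 kb to either side, and a CpG was used where all 4 deposited methylation files held 5 or more reads on it, which gave 4390 CpGs. Methylation had been measured by whole-genome bisulfite sequencing, which reads a methylated or hydroxymethylated cytosine as C and an unmodified cytosine as T. The 8 samples were spleen lymphocytes of C57BL/6J mice aged 6 to 8 weeks, with no gene altered and no treatment named: resting B cells lacking CD43 and naive CD4+ CD62L+ T cells (sorted as CD44 low and CD25-), each from females and from males. Each of these 4 groups held 2 samples of pooled mice that shared 1 deposited file, and it is not stated if such a file joins both samples or holds only one. The comparison of B with T cells was therefore seen once in females and once in males.

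Toll-like receptors bind conserved molecules of microbes and signal through adaptors such as MyD88 to NF-kB and interferon regulatory factors. Those at the cell surface (TLR1, TLR2, TLR4, TLR5 and TLR6) bind lipids, lipoproteins or flagellin, while TLR3 and TLR9 sit in endosomes and bind nucleic acids. CD180 is a surface relative of TLR4 that lacks its signalling domain, and it is carried by MD-1, the product of Ly86, as TLR4 is carried by MD-2, the product of Ly96. Resting B cells are known for expressing TLR9 and the CD180 and MD-1 pair, and naive CD4+ T cells for signalling mainly through the T cell receptor. RNA was not used here, so the values below are DNA methylation levels only.

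The files held 278275973 to 339923001 autosomal CpG reads, or 14.6 to 17.7 reads per CpG, and the autosomal methylation level was 79.5% to 80.7% in each file. To describe the sorted cells, promoters of lineage markers were read from lists. These were chosen with earlier results of these data known, so they are not an independent check. Of 8 B cell marker promoters, 7 were called lower in B cells, and the eighth, Cr2, differed by -4.46 percentage points. All 8 T cell marker promoters were called higher in B cells, by 39.6 to 88.3 points. None of 8 myeloid marker promoters was called in either direction by the quasi-binomial test, although 2 had an unadjusted p under 0.05, as had 14.3% of all promoters. Their differences ran from -19.3 points for Lyz2, where adjusted p was 0.0434, to 4.79 points for Itgam, and their part in the results below was not tested.

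Over whole gene regions, body and flanks together, the differences of the 10 members ran from -7.02 to 2.96 points. Levels of the 10 regions ran from 68.3% to 87.8% in B cells and from 69.1% to 89.9% in T cells. No region was called, where a call needed an adjusted p under 0.05 over all genes and a mean difference of 20 points or more in the methylation level, methylated over all reads. Limma and Fisher's exact test also called 0, and 4 of the 10 had an unadjusted p under 0.05, beside 16.1% of all regions. Over all genes, 0.0926% of regions were called, and 0.00926% were called lower in B cells. The most negative differences belonged to Ly86 (-7.02 points, adjusted p 0.0515), Tlr9 (-6.99 points, adjusted p 0.121) and Cd180 (-6.82 points, adjusted p 0.0685), and the most positive to Tlr4 (2.96 points, adjusted p 0.200). The median of the 10 was -0.617 points, beside 0.441 points over all regions. The flanks make up most of a region around a short gene such as Tlr9. The Tlr9 gene body alone was at 42.0% and 41.4% in B against 59.1% and 60.9% in T cells (-18.3 points, adjusted p 0.0223). The Ly86 body, which makes up most of its region, differed by -8.46 points (adjusted p 0.0201). Neither reached the 20-point limit, and over gene bodies alone 0 of the 10 members and 0.320% of all genes were called.

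Promoters, taken as the gene start with 1 kb to either side, set 3 members apart. Those of Ly86, Tlr9 and Cd180 were called, all lower in B cells, and the other 7 were not. Over all 21055 promoters tested, 0.917% were called, 0.432% lower in B cells and 0.484% higher. The median difference of the 10 member promoters was -4.74 points, beside 0.148 points over all promoters. The member promoters held 21 to 55 measured CpGs, fewer than the median of 61 over all promoters, and the 3 called ones held 47, 21 and 21. Adjusted p-values are from the quasi-binomial model with a Benjamini-Hochberg correction, in which 2 B files stand against 2 T files. An exact permutation test at this size cannot give a two-sided p below 0.333, so every call rests on the spread shared across features.

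**Figure D1:**
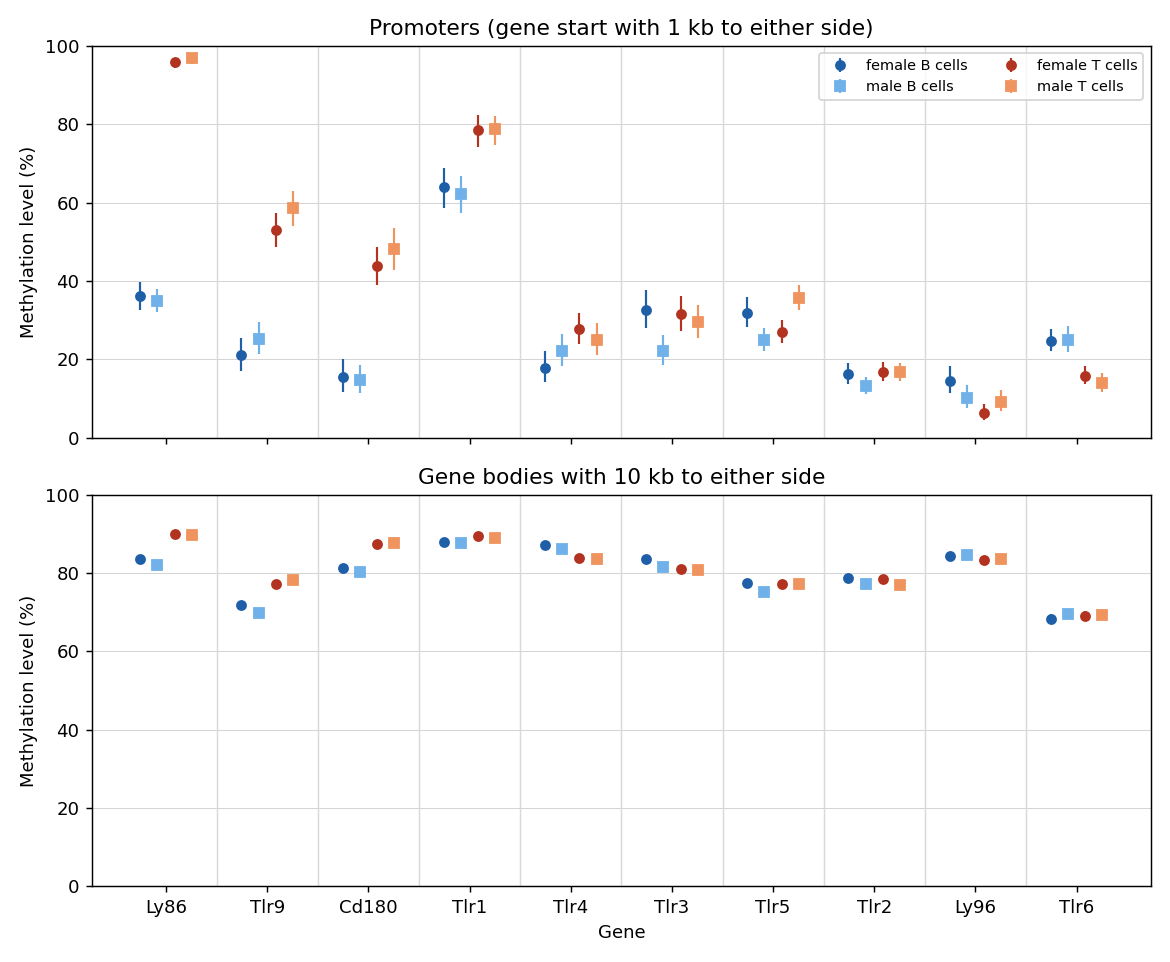
Methylation level (%) of each member in the 4 files, for promoters (upper panel) and whole gene regions (lower panel). Points are files, blue for B and red or orange for T cells, and bars are 95% Wilson intervals for counting error. The Ly86, Tlr9 and Cd180 promoters sit lower in both B files than in both T files by 60.9, 32.7 and 30.9 points, while no region differs by more than 7.02 points.

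Ly86 (ENSMUSG00000021423.6, chr13:37345208-37419036, plus strand), which encodes MD-1, had the largest difference of the 10 promoters. Its promoter level was 36.1% in female B cells (95% Wilson interval 32.5 to 39.8) and 34.9% in male B cells (31.9 to 38.0), against 95.9% in female T cells (94.5 to 97.0) and 96.8% in male T cells (95.4 to 97.8). The difference was -60.9 points (adjusted p 3.7e-07), and the files of the cell types did not overlap. The RefSeq promoter entry over its start, chr13:37345095-37345394 on the plus strand of GRCm38.p6, is shown because all of its 13 CpGs, written in capitals, were low in B and high in T cells.

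Ly86 promoter: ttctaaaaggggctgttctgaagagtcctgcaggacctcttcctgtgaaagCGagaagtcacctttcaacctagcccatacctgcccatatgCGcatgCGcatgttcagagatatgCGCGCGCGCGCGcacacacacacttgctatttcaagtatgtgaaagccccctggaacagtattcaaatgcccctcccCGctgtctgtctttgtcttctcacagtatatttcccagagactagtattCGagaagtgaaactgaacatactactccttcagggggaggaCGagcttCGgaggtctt

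Over these 13 CpGs the level was 10.8% and 10.0% in the female and male B files and 96.7% and 95.9% in the female and male T files. Single CpGs lay between 0% and 21.4% in the B files and between 84.2% and 100% in the T files. The repeated CG letters just after the start are CpGs 4 to 9 of this stretch. The 1 kb window at chr13:37345001-37346000, which holds the first exon, had 31 CpGs at 23.2% and 25.2% in B and 96.4% and 96.1% in T cells (difference -72.1 points, adjusted p 2.6e-232). The next window was called too, at -37.9 points. Further into the gene, introns held called windows at chr13:37356001-37357000, with levels of 27.0% and 22.8% in B against 71.2% and 77.1% in T cells (-49.3 points, adjusted p 1.1e-32), and at chr13:37402001-37403000, with 33.8% and 22.4% against 74.4% and 67.2% (-42.7 points, adjusted p 4.7e-09). The first of these lies 11292 bp and the second 57292 bp past the gene start. The 10 kb before the start averaged 80.0% and 83.2% in B and 88.2% and 87.1% in T cells, and the 10 kb past the gene end 95.2% to 96.6% in all 4 files. In the whole region, 45 CpGs were 50 points or more lower in B cells and 0 higher.

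Cd180 (ENSMUSG00000021624.9, chr13:102693558-102739629, plus strand) encodes the receptor that MD-1 carries. Its promoter stood at 15.5% (11.8 to 20.1) and 14.6% (11.3 to 18.7) in the female and male B files and at 43.8% (39.0 to 48.6) and 48.1% (42.8 to 53.4) in the T files, a difference of -30.9 points (adjusted p 7.9e-04). Here the start itself was low in both cell types, and the difference lay around it. The RefSeq promoter entry at chr13:102693308-102693607, plus strand, is shown as the part that was nearly unmethylated in all 4 files, with its CpGs in capitals.

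Cd180 promoter: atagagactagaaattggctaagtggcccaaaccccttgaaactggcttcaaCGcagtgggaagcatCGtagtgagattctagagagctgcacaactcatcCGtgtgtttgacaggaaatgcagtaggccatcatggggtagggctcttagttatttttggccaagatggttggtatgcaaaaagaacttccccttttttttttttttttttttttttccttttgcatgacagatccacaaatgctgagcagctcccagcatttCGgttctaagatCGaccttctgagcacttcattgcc

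Its 5 CpGs were at 0% in both B files, from 55 and 83 reads summed over the CpGs. They were at 9.20% and 3.57% in the female and male T files. Low methylation in B cells spread well past this stretch. Of 60 windows in the region 11 were called, all lower in B cells, and they lay among the 12 windows from chr13:102689001 to chr13:102701000, a range whose ends are the first and last called window. The run of 9 from chr13:102689001 to chr13:102698000 averaged 38.6% and 36.3% in B and 68.7% and 72.1% in T cells over 84 CpGs. Within it, the intronic window at chr13:102695001-102696000 was at 0% and 1.05% in B against 39.8% and 50% in T cells (-44.4 points, adjusted p 7.5e-19). The window at chr13:102697001-102698000 was at 55.9% and 52.0% against 98.5% and 95.6% (-43.1 points, adjusted p 2.0e-18). The window at chr13:102699001-102700000 was at 27.98% and 26.6% against 59.7% and 62.5% (-33.8 points, adjusted p 7.4e-19), and limma did not call it (adjusted p 0.0917). The 12th, at chr13:102698001-102699000, had an adjusted p of 2.7e-07 at -17.1 points and missed the 20-point limit. The 10 kb before the start were at 69.3% and 69.1% in B and 84.8% and 86.1% in T cells.

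Tlr9 (ENSMUSG00000045322.10, chr9:106222598-106226883, plus strand) encodes the endosomal receptor for DNA rich in unmethylated CpGs. Its promoter was at 20.96% (17.04 to 25.5) and 25.3% (21.4 to 29.6) in the female and male B files and at 53.1% (48.8 to 57.4) and 58.5% (54.1 to 62.9) in the T files, a difference of -32.7 points (adjusted p 3.3e-04). The RefSeq promoter entry, chr9:106222348-106222647 on the plus strand, holds no CpG, so the CpGs measured lie to either side of it. It is shown with a stretch upstream, chr9:106221216-106221397, the part densest in CpGs of the window with the largest difference in this gene, CpGs in capitals.

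Tlr9 promoter: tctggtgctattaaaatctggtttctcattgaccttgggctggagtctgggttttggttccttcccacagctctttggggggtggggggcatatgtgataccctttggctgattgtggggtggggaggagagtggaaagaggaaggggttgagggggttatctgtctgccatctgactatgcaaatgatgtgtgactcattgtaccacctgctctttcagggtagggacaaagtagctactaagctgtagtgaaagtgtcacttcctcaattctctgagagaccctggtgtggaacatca
Tlr9 upstream stretch: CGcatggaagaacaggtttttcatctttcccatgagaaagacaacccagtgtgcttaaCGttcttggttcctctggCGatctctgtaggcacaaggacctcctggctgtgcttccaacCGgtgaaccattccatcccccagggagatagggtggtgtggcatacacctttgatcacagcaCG

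The upstream stretch averaged 12.7% and 16.5% in B and 90.8% and 95.2% in T cells over 5 CpGs. CpGs 2, 3 and 4 had no methylated read in either B file, from 14 to 23 reads each, and 85.7% to 100% in the T files. The first CpG was at 60% and 80% in the B files and so stood apart from the other 4. The window around this stretch, chr9:106221001-106222000, was at 26.8% and 30.1% against 89.6% and 93.1% (-62.9 points, adjusted p 3.7e-55). The window across the start, chr9:106222001-106223000, was at 18.8% and 16.5% against 54.6% and 54.6% (-37.0 points, adjusted p 9.95e-25). A run of 4 called windows from chr9:106220001 to chr9:106224000 averaged 37.0% and 36.5% in B and 73.7% and 76.5% in T cells. In the coding sequence, the window at chr9:106225001-106226000 held 24 CpGs at 55.3% and 55.0% in B against 94.0% and 95.4% in T cells (-39.6 points, adjusted p 4.6e-71). Of 24 windows in the region 6 were called, and the sixth, named after its value was seen, went the other way: at chr9:106215001-106216000, at the neighbouring gene Twf2, B cells were at 47.1% and 47.0% and T cells at 9.84% and 14.0%.

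**Figure D2:**
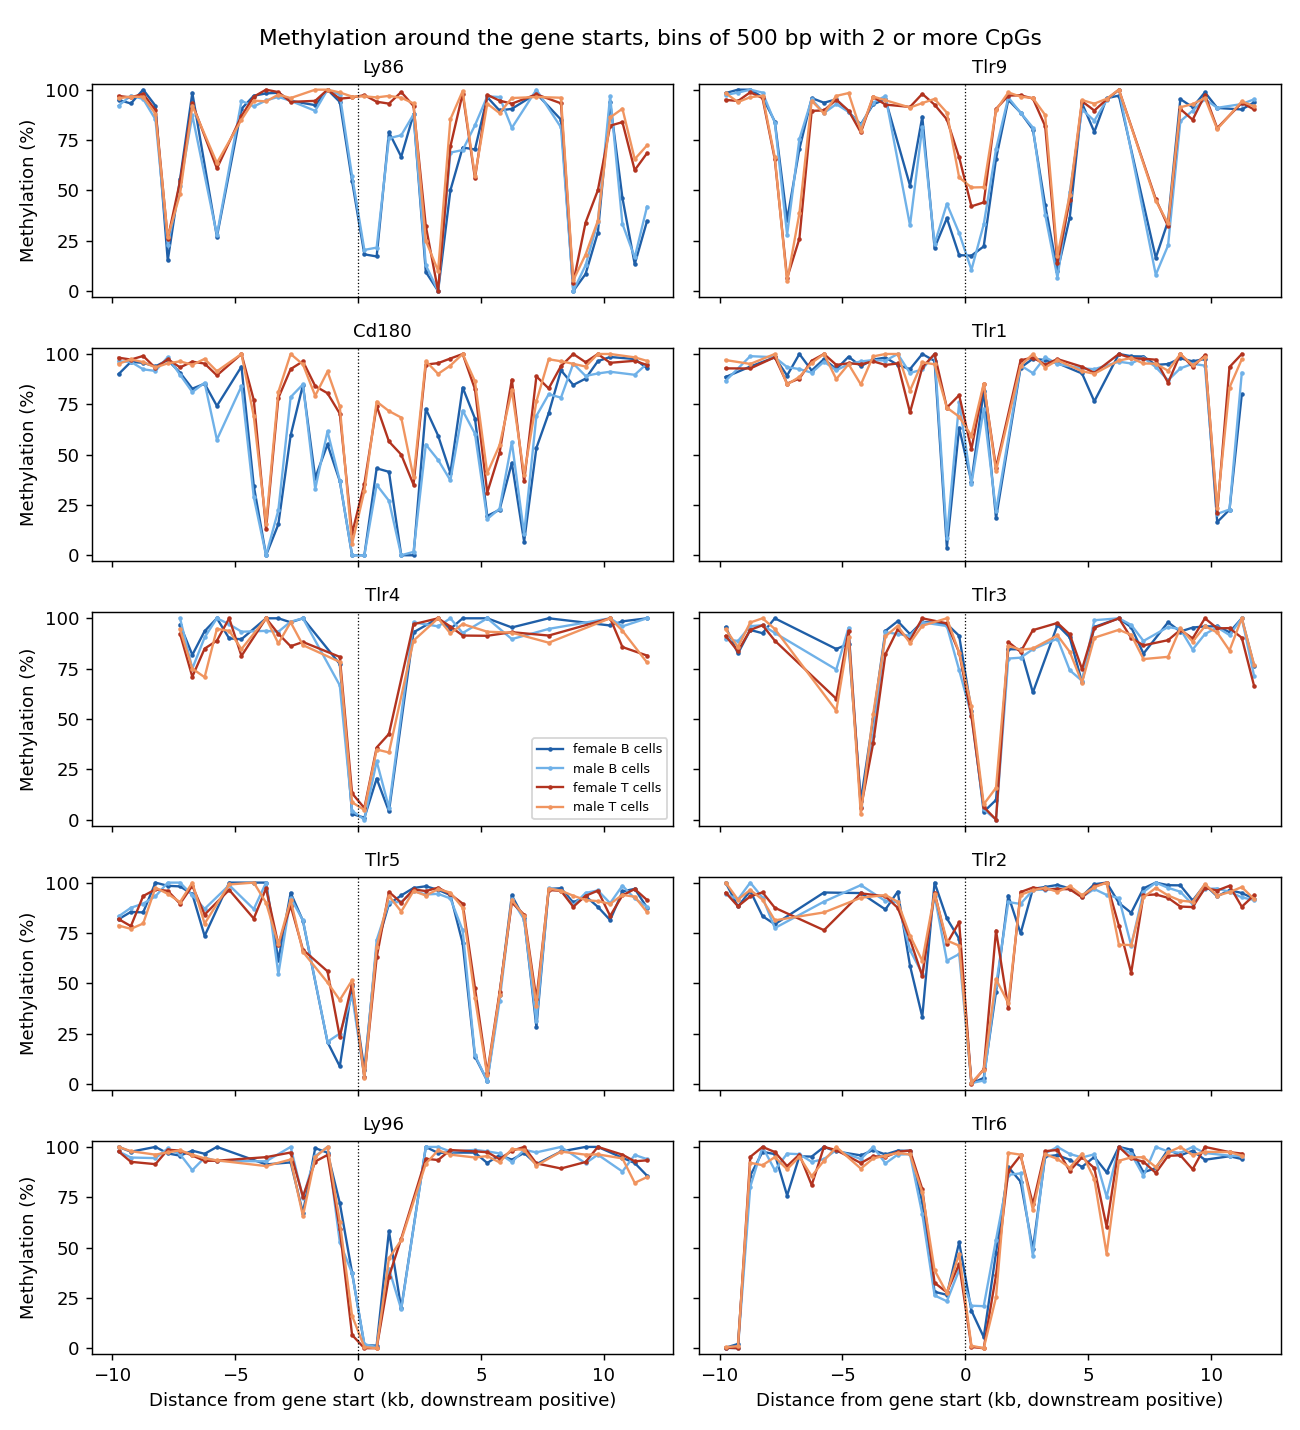
Methylation (%) in 500 bp bins with 2 or more CpGs, against distance from the gene start in kb with downstream positive, 1 line for each file. The B lines leave the T lines at the start of Ly86, in the 10 kb around the start of Cd180 and before and after the start of Tlr9, and all 4 lines reach low levels within 1 kb of the starts of Tlr2, Tlr3, Tlr4 and Ly96, at Tlr4 on both sides of the start and at the other 3 past it.

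The calls for the Tlr9 and Cd180 promoters ended when any 1 of the 4 files was left out, in a fit that also lacks the sex term, although their differences stayed between -35.4 and -30.0 points and between -33.0 and -28.7 points (adjusted p 0.0690 to 0.129 and 0.0744 to 0.160). The Ly86 call held in each of these fits (adjusted p 0.00791 to 0.0213). Over all promoters these fits called 0.161% to 0.252%, against 0.917% with 4 files. For the 3 genes, the windows named by rule, at most 3 in each direction, kept their calls in each of these fits. Other called windows of these genes were not followed singly. With all 4 files, window p-values use 1 dispersion for all windows and shrink as reads add up. Kept calls therefore say little about the spread between files.

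Tlr2 encodes a receptor that pairs with that of Tlr1 or of Tlr6 to bind bacterial lipoproteins, and Tlr1 and Tlr6 are close neighbours on chromosome 5. Tlr1 (ENSMUSG00000044827.10, chr5:64924679-64933563, minus strand) had the most methylated promoter of the 10 in B cells, at 64.0% and 62.2%, against 78.5% and 78.7% in T cells. Its difference of -15.5 points had an adjusted p of 0.0281 and was under the 20-point limit. The adjusted p was 0.135 by limma, 0.072 without the sex term, 0.366 with 500 bp to either side and 0.248 to 0.389 with a file left out, but 0.000914 by Fisher's exact test. Fisher's exact test takes reads as replicates and leaves out the spread between files. The annotated start of Tlr1 was low in all files. Over the 3 CpGs of the RefSeq entry at chr5:64933509-64933808 the levels were 4.88% and 6.12% in B and 5.88% and 8.696% in T cells. A second RefSeq entry inside the gene, chr5:64932650-64932949 with 9 CpGs, was at 90.4% and 75.5% in B and 94.8% and 94.1% in T cells. Before the start, the window at chr5:64934001-64935000 was at 47.2% and 48.4% in B against 87.3% and 84.0% in T cells (-37.9 points, adjusted p 3.0e-06). The part of it densest in CpGs, chr5:64934362-64934497 on the minus strand, holds 3 of its 6 CpGs.

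Tlr1 upstream stretch: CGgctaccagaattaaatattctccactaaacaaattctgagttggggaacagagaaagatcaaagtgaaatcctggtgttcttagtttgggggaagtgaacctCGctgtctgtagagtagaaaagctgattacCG

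They averaged 3.85% and 8.82% in B and 73.3% and 73.3% in T cells. Each file held 26 to 34 reads summed over these CpGs, so each file's level is coarse. A second called window of this region, named after its value was seen, lay past the gene end at chr5:64922001-64923000, with 49.2% and 53.1% in B and 98.8% and 97.7% in T cells (-47.1 points, adjusted p 4.9e-18).

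Tlr6 (ENSMUSG00000051498.6, chr5:64952031-64960097, minus strand) went the other way at its start. Its promoter was at 24.8% and 25.04% in B and 15.8% and 13.9% in T cells, and this difference of 10.0 points had an adjusted p of 0.0243, under the 20-point limit. The adjusted p was 0.206 by limma, 0.0731 without the sex term and 0.262 to 0.386 with a file left out, but 0.000144 by Fisher's exact test and 0.00168 with 500 bp to either side. Here too Fisher's exact test takes reads as replicates. None of the Tlr6 windows was called. The one with the largest difference, chr5:64959001-64960000 with 29 CpGs, was at 14.9% (11.9 to 18.5) and 24.2% (20.7 to 28.1) in B and at 0.409% and 0.381% in T cells (19.1 points, adjusted p 2.2e-41). It missed the 20-point limit and was called at 23.8 points without the female B cells file. The RefSeq entry at chr5:64959999-64960298, minus strand, is shown as a start with more methylation in B cells, CpGs in capitals.

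Tlr6 promoter: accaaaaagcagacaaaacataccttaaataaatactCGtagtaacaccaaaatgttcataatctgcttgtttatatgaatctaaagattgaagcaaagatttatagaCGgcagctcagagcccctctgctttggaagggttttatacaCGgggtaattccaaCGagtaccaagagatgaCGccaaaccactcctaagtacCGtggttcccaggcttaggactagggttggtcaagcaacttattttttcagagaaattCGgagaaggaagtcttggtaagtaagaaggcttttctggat

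Its 7 CpGs averaged 45.1% and 33.0% in B and 5.88% and 12.5% in T cells. Both B files were higher than both T files at each of these CpGs, and the first, at 75.0% or more in B and 55.6% or more in T cells, was the most methylated in all files. A second RefSeq entry inside the gene, chr5:64959117-64959416 with 5 CpGs, was at 6.52% and 13.2% in B and 0% in both T files. Further upstream in the promoter, CpGs from -543 to -350 bp, picked after their values were seen, went the other way. Their mean differences ran from -26.9 to -12.5 points.

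Tlr2 (ENSMUSG00000027995.10, chr3:83836272-83841767, minus strand) was low at its start in all cells, with a promoter level of 16.2% and 13.1% in B and 16.8% and 16.7% in T cells (-2.06 points, adjusted p 0.657). Its window with the largest difference, upstream at chr3:83843001-83844000, was at 34.7% and 54.5% in B and 62.2% and 66.0% in T cells. That difference of -19.5 points (adjusted p 2.1e-05) was not called, and the B files lay further from each other than the T files did. With the male B cells file left out it was -29.4 points (adjusted p 2.1e-06) and with the female T cells file left out -21.4 points (adjusted p 0.000806), both past the limit, and without the female B cells file it was -9.59 points (adjusted p 0.363). By limma its adjusted p was 0.407 and by Fisher's exact test 0.390. Inside the gene a shorter stretch, picked after its values were seen, went the other way: in the 500 bp centred 1.75 kb past the start, 5 CpGs were at 93.5% and 90.3% in B and 37.5% and 40.2% in T cells. Of all Tlr2 CpGs, 4 were 50 points or more higher in B cells and 0 lower.

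Tlr5 (ENSMUSG00000079164.8, chr1:182954788-182976044, plus strand) encodes the flagellin receptor. Its promoter was at 31.9% and 24.9% in B and 27.0% and 35.7% in T cells, with overlapping groups (adjusted p 0.721). In the gene and its flanks 2 windows were called lower in B cells. One upstream, chr1:182953001-182954000, which overlaps the far end of the promoter, was at 23.8% and 26.1% against 48.1% and 51.7% (-25.01 points, adjusted p 3.3e-07). In the intron past the first exon, chr1:182959001-182960000 held 24 CpGs at 21.5% and 20.8% against 48.7% and 44.3% (-25.3 points, adjusted p 1.3e-18). Limma called neither (adjusted p 0.197 and 0.164). The part of the intronic window densest in CpGs, chr1:182959441-182959657 on the plus strand, is shown with its CpGs in capitals.

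Tlr5 intron stretch: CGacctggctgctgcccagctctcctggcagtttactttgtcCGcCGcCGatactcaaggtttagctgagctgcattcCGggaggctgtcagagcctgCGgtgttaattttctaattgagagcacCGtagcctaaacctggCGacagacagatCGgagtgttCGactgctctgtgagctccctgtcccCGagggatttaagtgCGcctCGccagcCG

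Its 14 CpGs averaged 10.7% and 11.4% in B and 46.1% and 40.8% in T cells, an intermediate average in T cells unlike the near full methylation at Ly86. Single CpGs ran from 0% to 40.0% in the B files and from 6.25% to 80.0% in the T files. CpGs 1 and 3 were higher in B cells, by a mean of 15.2 and 4.46 points, and the rest were lower.

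**Figure D3:**
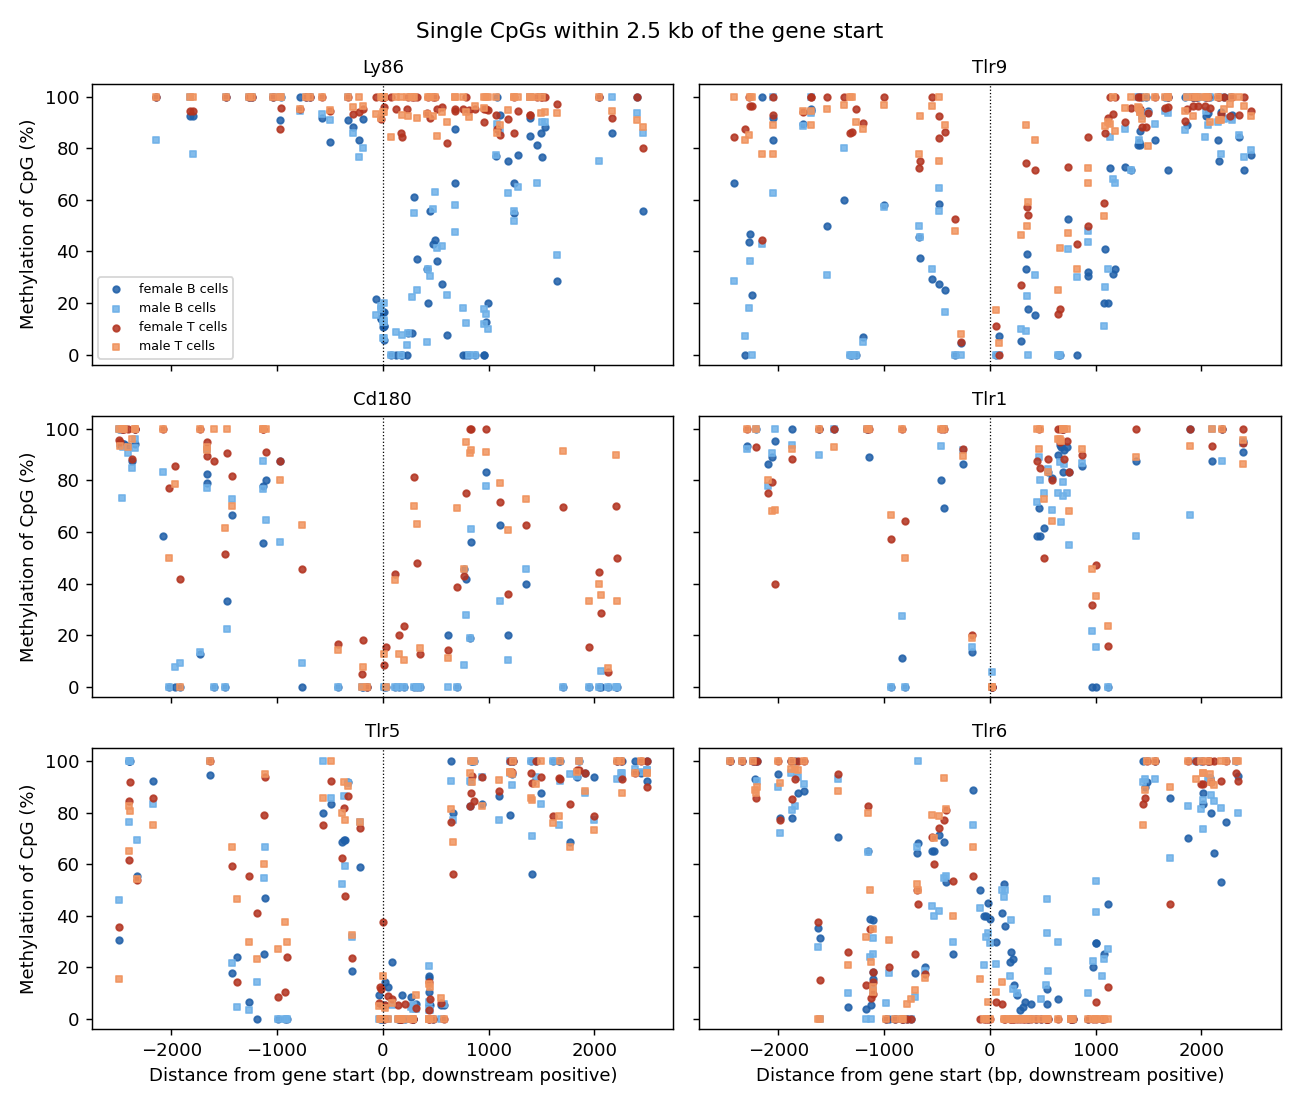
Methylation (%) of each CpG within 2.5 kb of the gene start, against distance from the start in bp with downstream positive, for 6 members. Points are single CpGs in single files. At Ly86 the B points drop to between 0% and 21.4% over the start while the T points stay at 84.2% or more, and at Tlr6 the B points lie above the T points at the start.

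Tlr4 (ENSMUSG00000039005.13, chr4:66827584-66930284, plus strand), the lipopolysaccharide receptor, and Ly96 (ENSMUSG00000025779.10, chr1:16688051-16709611, plus strand), its MD-2 partner, had no promoter call, unlike Cd180 and Ly86. The Tlr4 promoter was at 17.8% and 22.1% in B and 27.6% and 25% in T cells (-6.36 points, adjusted p 0.407). Just past the Tlr4 start both B files were below both T files, and in the 500 bp centred at 1.25 kb, picked after its values were seen, 5 CpGs were at 4.08% and 6% in B against 42.6% and 33.3% in T cells. The Ly96 promoter was at 14.4% and 10.1% in B and 6.22% and 9.15% in T cells (4.58 points, adjusted p 0.415). The Ly96 window across its start, with 23 CpGs, was at 1.38% or less in every file. No Ly96 window was called, and the one with the largest difference, chr1:16687001-16688000 just upstream, was at 52.5% and 43.8% in B and 25.8% and 37.2% in T cells (16.7 points, adjusted p 0.0351). It passed the limit at 21.02 points without the male B cells file and at 22.3 points without the male T cells file. A shorter stretch past the start, picked after its values were seen, went the other way: in the 500 bp centred at 1.75 kb, 5 CpGs were at 19.8% and 19.3% in B and 54.4% and 53.7% in T cells.

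Of the 89 windows of Tlr4, 3 were called, all far inside the annotated gene. At chr4:66872001-66873000 the level was 37.3% and 60.5% in B against 93.8% and 93.4% in T cells (-44.7 points, adjusted p 7.7e-14), and the B files differed from each other. At chr4:66856001-66857000 it was 94.4% and 84.5% in B against 68.3% and 66.2% in T cells (22.2 points, adjusted p 0.00114), and that call ended without the female B cells file (17.2 points, adjusted p 0.282). At chr4:66875001-66876000 it was 75.0% and 63.2% in B against 87.8% and 92.0% in T cells over 3 CpGs (-20.8 points, adjusted p 0.0481). That call ended without any 1 of the 4 files (adjusted p 0.05002 to 0.545). Across the Tlr4 body the level was slightly higher in B cells, at 87.4% and 86.6% against 84.0% and 83.6%, and the median difference of its windows was 3.70 points, beside 0.0489 points over all windows.

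Tlr3 (ENSMUSG00000031639.12, chr8:45395665-45411080, minus strand), the endosomal receptor for RNA duplexes, had no called window among 34. Its promoter was at 32.6% and 22.1% in B and 31.5% and 29.5% in T cells (adjusted p 0.741). Its window with the largest difference, chr8:45408001-45409000 with 4 CpGs, was at 59.1% and 76.6% in B and 89.3% and 86.0% in T cells (-19.8 points, adjusted p 0.176). Each file held 28 to 50 reads summed over these CpGs.

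Counted over all members, 28 of 450 windows were called (6.22%), 26 lower and 2 higher in B cells. Over the genome 2.08% of windows were called, 0.913% lower and 1.16% higher in B cells. Among windows in or within 10 kb of a protein-coding gene it was 2.77%. Of the called member windows 92.9% were lower in B cells, beside 43.9% of all called windows. That share varied with the setting: 43 of 58 were lower in B cells at a 10-point limit, 40 of 49 in windows of 500 bp, 14 of 14 in windows of 2 kb, 16 of 17 by limma, 24 of 25 by Fisher's exact test and 50 of 70 at an adjusted p under 0.05 with no limit on the difference. Ly86, Cd180 and Tlr9 held 21 of the 28, with 4 of 87, 11 of 60 and 6 of 24 windows called. Tlr1, Tlr4 and Tlr5 held the other 7, and Tlr2, Tlr3, Tlr6 and Ly96 held 0. At least 1 called window was thus held by 6 of the 10 members, beside 48.1% of all protein-coding gene regions. In Tlr4 3.37% and in Tlr5 5% of windows were called, nearer to the 2.77% in or near all protein-coding genes. Of 96 windows centred within 5 kb of the member's start, 19 were called (19.8%), beside 3.24% around all protein-coding gene starts, and 9 of 354 beyond that distance. The 19 include runs of adjacent windows, 9 at Cd180, 4 at Tlr9 and 2 at Ly86, so they are not separate cases. All 3 called Tlr4 windows lay beyond 5 kb, a distance that was not set in advance. By annotation, 12 of the 28 were intronic, 9 upstream, 5 on a coding exon, 1 on an untranslated exon and 1 downstream. These places were not counted among all windows tested, so they do not show where calls concentrate.

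Single CpGs with a large difference lay mostly in the same 3 genes. Of 4390 member CpGs, 120 (2.73%) were lower in both B files than in both T files by a mean of 50 points or more, and 14 (0.319%) were higher by as much. Over all CpGs these shares were 0.414% and 0.556%. Ly86, Cd180 and Tlr9 held 104 of the 120, with 45, 33 and 26.

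**Figure D4:**
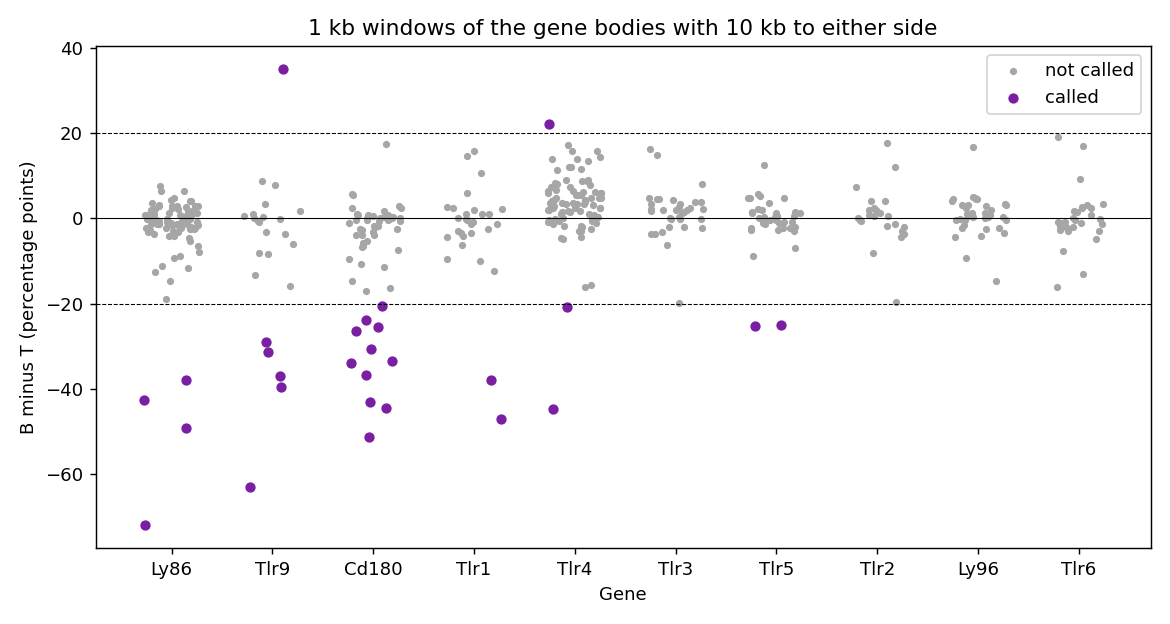
Difference in methylation level, B minus T in percentage points, of each 1 kb window in the 10 member regions, with random spread along the horizontal axis. Purple points are the called windows and dashed lines mark 20 points. Of the 28 called windows, 26 lie below the lower line, and 21 of the 28 belong to Ly86, Tlr9 and Cd180.

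The sexes did not differ by call at these genes. None of the 450 windows was called between females and males by the quasi-binomial test, by limma or by Fisher's exact test, and 17 (3.78%) had an unadjusted p under 0.05. Over all autosomal windows 0.00103% were called between the sexes, and 4.73% had an unadjusted p under 0.05.

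The promoters were searched on both strands for short motifs of factors of B, myeloid and T cells. RefSeq gave 11 promoter entries for 8 members, each with 250 bases before and 50 after a start, and none was used for Tlr4 or Ly96. GAGGAAGT, a core of PU.1 and related ETS factors, was in 2 of the 11, those of Tlr9 shown above and of Tlr1 at chr5:64933509-64933808, beside 3.20% of 32851 entries of all genes. TGTGGTTT (RUNX), CTTTGAAG (TCF/LEF) and the EBF1 palindrome were in 0 of the 11, beside 1.78%, 1.66% and 0.904% of all entries. A match is letters only, and binding was not measured.

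The rest of the pathway was read from a list of 42 further genes, from X-linked and other receptors to adaptors, kinases, transcription factors and inhibitors. No promoter of the 41 tested was called by the quasi-binomial test, by limma or by Fisher's exact test, and 13 had an unadjusted p under 0.05 (31.7%, beside 14.3% of all promoters). With 0.917% of all promoters called, a count of 0 among 41 is near the background. The difference furthest below 0 was that of Lbp, which encodes the lipopolysaccharide-binding protein, at 49.2% and 50.3% in B against 63.2% and 64.4% in T cells (-14.1 points, adjusted p 0.0413). It was called at -27.1 points when the promoter was cut to 500 bp to either side. The difference furthest above 0 was that of Ikbke, a kinase upstream of interferon regulatory factors, at 27.5% and 22.4% against 4.67% and 8.42% (18.4 points, adjusted p 0.0237). The median over the 41 was -0.360 points. Of 2030 pathway windows 116 were called (5.71%, beside 2.77% in or near all protein-coding genes), 81 lower and 35 higher in B cells. At least 1 called window was held by 32 of the 42 genes, beside 48.1% of all protein-coding gene regions, and a pathway region held a median of 40.5 windows, beside 35 over all. Pik3ap1, the adaptor BCAP that links receptors to phosphoinositide kinase, held 21 of them among 130 windows, 20 lower in B cells. Tlr7, the X-linked receptor for RNA that like TLR9 is endosomal, held 2 called windows of 28, both lower in B cells. Its promoter held 5 CpGs, at 70.5% in B and 52.9% in T cells of females and at 26.5% and 9.52% in those of males (adjusted p 0.442).

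**Figure D5:**
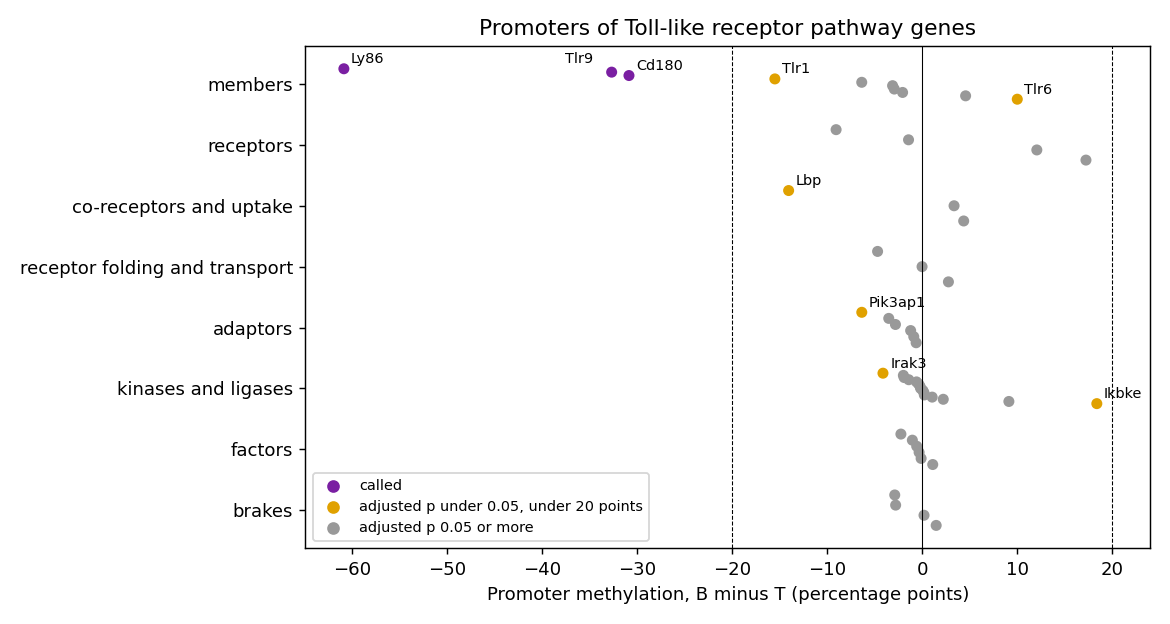
Difference in promoter methylation, B minus T in percentage points, for the 10 members (top row) and the 41 tested pathway genes grouped by role, 1 point for each gene. Purple points were called, yellow points had an adjusted p under 0.05 but a difference under 20 points, and dashed lines mark 20 points. The called points are Ly86, Tlr9 and Cd180, and the pathway genes lie between -14.1 points for Lbp and 18.4 points for Ikbke.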

How the data were processed

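Whole-genome bisulfite libraries were made from 8 samples in 4 groups of 2 (female and male B and T cells), with 1 deposited file for each group. Per the submitters' processing notes the tools were Trim Galore, FastQC and Bismark 0.13.1, on mm10, the build called GRCm38 here; filters, duplicate removal and conversion rates are not given in the sources used here. The labels say that part of each library was oxidized; the files used are named as plain bisulfite, in which hydroxymethylation is read as methylation.

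The authors deposited, for each CpG, its coverage (a count of reads) and a methylation fraction given to 3 decimals, both strands joined and at least 5 reads in each entry. Methylated reads were recovered as fraction times coverage, rounded; 100% lay within 0.00101 of a whole number over the coverage. In all 4 files 18714703 CpGs had 5 or more reads. Wilson intervals cover counting error only, since reads were not tagged as molecules. Reads of a stretch, window, promoter or region are sums over its CpGs, so a read across several CpGs counts at each. The intervals take these counts as independent and are too narrow where reads span several CpGs.

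Reads were summed over 1 kb windows, promoters and gene regions with 3 or more CpGs. A quasi-binomial logistic model (cell type and sex, 1 residual degree of freedom) was fitted with its dispersion squeezed by limma 3.58.1 (R 4.3.3, Python 3.11.15, scipy 1.17.1), and p-values were adjusted by Benjamini-Hochberg over all features of a kind. For windows the squeezed dispersion was 1.31 throughout, so window p-values rest on the average spread. A call needed an adjusted p under 0.05 and 20 points. Each file counts as 1 replicate. With 1 file for each group, no p-value measures the spread between pools of the same group. For promoters and regions, the 1 residual degree of freedom holds how far the B minus T difference changes between the sexes. Window p-values do not use the spread of the window itself.

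Named windows were those called in a gene body or within 2000 bp of its start, at most 3 in each direction, or otherwise the one with the largest difference; pathway genes were named for the largest promoter difference in each direction. Pik3ap1 and Tlr7 were added after their values were seen. The members and lists were chosen with earlier results of these data known. Alternatives were another dispersion prior, limma on log2 ratios (pseudocount 1), Fisher's exact test, no sex term, other thresholds and feature sizes, and each file left out (with no sex term). Fisher's exact test was run on the summed reads of each sex, and the larger p was kept. It takes reads as replicates and leaves out the spread between files.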

Additional observations from a re-analysis of the deposited data

Results flagged for a closer look

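Among 10 member promoters, 10 member regions and 19 named windows, 4 had B minus T differences of opposite sign in females and males. With 1 file for each group this was not tested. The share with opposite signs among all promoters or regions was not counted, so these 4 are not set apart from other genes. The Tlr5 promoter had a difference of 4.89 points in the female pair of files and -10.7 in the male pair, 15.6 points apart, and the Tlr3 promoter one of 1.17 and -7.40 points, 8.57 apart. For whole regions it was 0.276 and -2.25 points at Tlr5 (2.52 points) and -0.747 and 0.247 points at Tlr6 (-0.995 points). None of these 4 was called between the cell types. No group held the 4 files that a check for outlying files needs.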

How the results depend on the processing

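Of the 10 member promoters 3 were called, and 5 were called at a 10-point limit, Tlr1 and Tlr6 being added, while the share of all promoters called went from 0.917% to 2.02%. Leaving out each file gave 1 to 1, Ly86, while calls over all promoters fell from 193 to between 34 and 53 (0.161% to 0.252%). These fits of 3 files have no sex term, so 2 choices change at once, and their 1 residual degree of freedom comes from the cell type that keeps both files; without the sex term in 4 files 3 were called. Pathway promoters went from 0 called to 2 at the 10-point limit (Lbp and Ikbke) and 1 with 500 bp to either side (Lbp). The 28 called windows became 58 at the 10-point limit, 17 by limma, 18 of 275 in gene bodies only, 49 of 647 at 500 bp and 14 of 259 at 2 kb. Of all windows 2.08% were called, 4.19% at the 10-point limit, 1.02% by limma, 2.74% at 500 bp and 1.40% at 2 kb, so the share called moved over the genome too; it was not computed for gene bodies only. The 17 windows that limma called were all among the 28, and leaving out each file gave 28 to 30, of which 25 to 27 were shared with the 28. With 10 or more reads 22 were called, 20 of them shared. Member regions and the sex comparison stayed at 0 called under each alternative run. No result changed direction among those called. With each CpG weighted equally the Tlr2 and Tlr6 region differences, neither called, were -0.760 and 1.60 points, against 0.257 and -0.250 points. No paired analysis was possible because the groups share no replicate numbers; the only pairing is by sex, through the sex term, and without it 27 windows were called. Depth of 19 reads, summed over CpGs, in the thinnest window of a file, and 1 file for each group, limit what small differences can show.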
